A study of Homo sapiens with 18 samples.

Results

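Bone, fat and cartilage genes were followed in MSC-hTERT, a human mesenchymal stem cell line immortalized with telomerase. The set holds 10 genes of the 61487 gene identifiers counted, taken by name. The bone genes are RUNX2, ALPL, SP7, SPP1 and BGLAP. The fat genes are PPARG, CEBPA, LPL and ADIPOQ, and SOX9 is the cartilage gene. Each symbol matched 1 Ensembl identifier. Of the 10 genes, 6 passed the filter on low counts and could be tested across the groups: RUNX2, ALPL, SPP1, PPARG, CEBPA and SOX9.

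The 18 libraries form 6 groups of 3. One group carries pMSCV, the name of a retroviral vector, and was taken as the control. The second expresses SRF, a transcription factor that binds the CArG box and drives muscle and cytoskeletal genes. The other groups are labelled with fusions of SRF to 4 partners, as SRF-RELA, SRF-PDGFRB, SRF-ICA1L and SRF-FOXO1. All groups share the same cell line, its immortalization and its growth medium with serum, FGF-2 and ascorbic acid; no bone, fat or cartilage induction medium is named. Whether a line is 1 clone or a pool is not given in the sources used here. The labels number the libraries of a group 1 to 3 without saying what a number marks, so the p-values measure only the spread between these libraries, which may be technical. The design sets the groups against each other; here the question is how the genes of the 3 lineages stood in each.

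Mesenchymal stem cells are known for their ability to become bone, fat or cartilage cells. RUNX2 and, after it, SP7 are the transcription factors of the bone lineage; ALPL is the alkaline phosphatase that supports mineral formation, and SPP1 (osteopontin) and BGLAP (osteocalcin) are proteins of the bone matrix. PPARG and CEBPA are the transcription factors of fat cell formation, LPL is a lipase of fat tissue and ADIPOQ is the hormone adiponectin. SOX9 is the transcription factor of the cartilage lineage.

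The 2 genes that changed against pMSCV, ALPL and PPARG, were both higher in the libraries labelled SRF-FOXO1, through which alone PPARG passed the filter. A promoter window of each is therefore shown, from RefSeq on GRCh38.p14, 5′ to 3′ on the plus strand. Capitals in the PPARG window mark ACCACA, the letters of TGTGGT, the core recognized by RUNX proteins, on the other strand. No stretch of the ALPL window is capitalized because none of the 3 motifs searched was found in it.
ALPL, chr1:21509173-21509472: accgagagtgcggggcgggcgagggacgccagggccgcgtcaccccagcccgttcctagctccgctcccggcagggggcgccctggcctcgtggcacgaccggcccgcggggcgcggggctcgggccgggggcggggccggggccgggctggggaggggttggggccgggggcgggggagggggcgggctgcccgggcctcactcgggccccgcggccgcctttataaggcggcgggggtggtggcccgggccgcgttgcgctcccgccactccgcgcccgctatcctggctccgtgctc
PPARG, chr3:12301517-12301816: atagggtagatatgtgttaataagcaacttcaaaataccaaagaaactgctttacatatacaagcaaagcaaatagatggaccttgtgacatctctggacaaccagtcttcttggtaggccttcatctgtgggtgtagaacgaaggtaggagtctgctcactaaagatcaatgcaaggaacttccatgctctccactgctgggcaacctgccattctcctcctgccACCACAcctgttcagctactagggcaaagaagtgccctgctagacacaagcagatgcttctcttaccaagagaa

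RefSeq's promoter table held 7 of the 10 genes in 15 windows of 300 bases, with 3 windows for ALPL and 6 for PPARG. The counts are per gene and do not tell which start was used. On both strands, the CArG box was in 0 of the 15 windows and in 1.29% of all 35116 windows in the table. GTAAACA, a forkhead motif of the kind FOXO1 binds, was also in 0 of the 15 windows and in 3.42% of all windows. TGTGGT was in 6 windows of 5 genes (RUNX2, SPP1, BGLAP, PPARG and ADIPOQ) and in 13.1% of all windows. In the PPARG window shown its match began 24 bases before the start, and the same match lies in another PPARG window that overlaps it. The remaining PPARG windows, among them the one at the annotated gene start, held no match, so the window shown is not typical of the gene. A match or its lack describes these letters only. SP7, LPL and SOX9 have no window here.

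Total counts ranged from 19362319 to 29806771 per library. Levels are given as CPM, a library's counts scaled to its total. A gene was called changed at a Benjamini-Hochberg adjusted p under 0.05 in edgeR's quasi-likelihood test over the 18544 genes that passed the filter. The SRF gene, whose count joins native and construct reads, was called higher in all 5 construct groups, with log2 fold changes against pMSCV from 1.66 in the group labelled SRF-FOXO1 to 3.99 in SRF. ICA1L (log2 fold change 3.43) and RELA (1.51) were called higher in the groups named after them, and PDGFRB (0.73, SE 0.23, edgeR adjusted p 1) was not. FOXO1 itself had 17.5, 10.9 and 9.45 CPM in pMSCV and 14.4, 7.63 and 7.36 CPM under the label SRF-FOXO1 (log2 fold change -0.30, SE 0.36, edgeR adjusted p 0.727), so its count does not bear out that label. Every value given for SRF-FOXO1 here is a value of the libraries so labelled. All 6 markers of mesenchymal stem cells had counts in the series, with summed levels of 3511 to 4731 CPM, and the 5 blood cell markers summed to 0.991 to 4.09 CPM. ITGB1 made up most of the first sum, with 1292258 counts over the series against 240657 for CD44, the next. RNA was taken from whole cultures, so fewer cells of a type and less RNA per cell cannot be told apart.

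Per kilobase of exon, the mean level over the 18 libraries was highest for RUNX2, at 8.24 CPM per kilobase. SOX9 followed at 5.59 and ALPL at 3.09. SPP1 was at 0.505, CEBPA at 0.185 and BGLAP at 0.103 CPM per kilobase. PPARG was at 0.0926, LPL at 0.0372, SP7 at 0.00545 and ADIPOQ at 0. This order is of means over all groups, and it differed between them. In pMSCV, RUNX2 was at 9.83, SOX9 at 4.83, SPP1 at 0.545 and ALPL at 0.266 CPM per kilobase. In the group labelled SRF-FOXO1, ALPL was the highest of the set at 10.6, above SOX9 at 6.94 and RUNX2 at 6.80 CPM per kilobase.

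**Figure D1:**
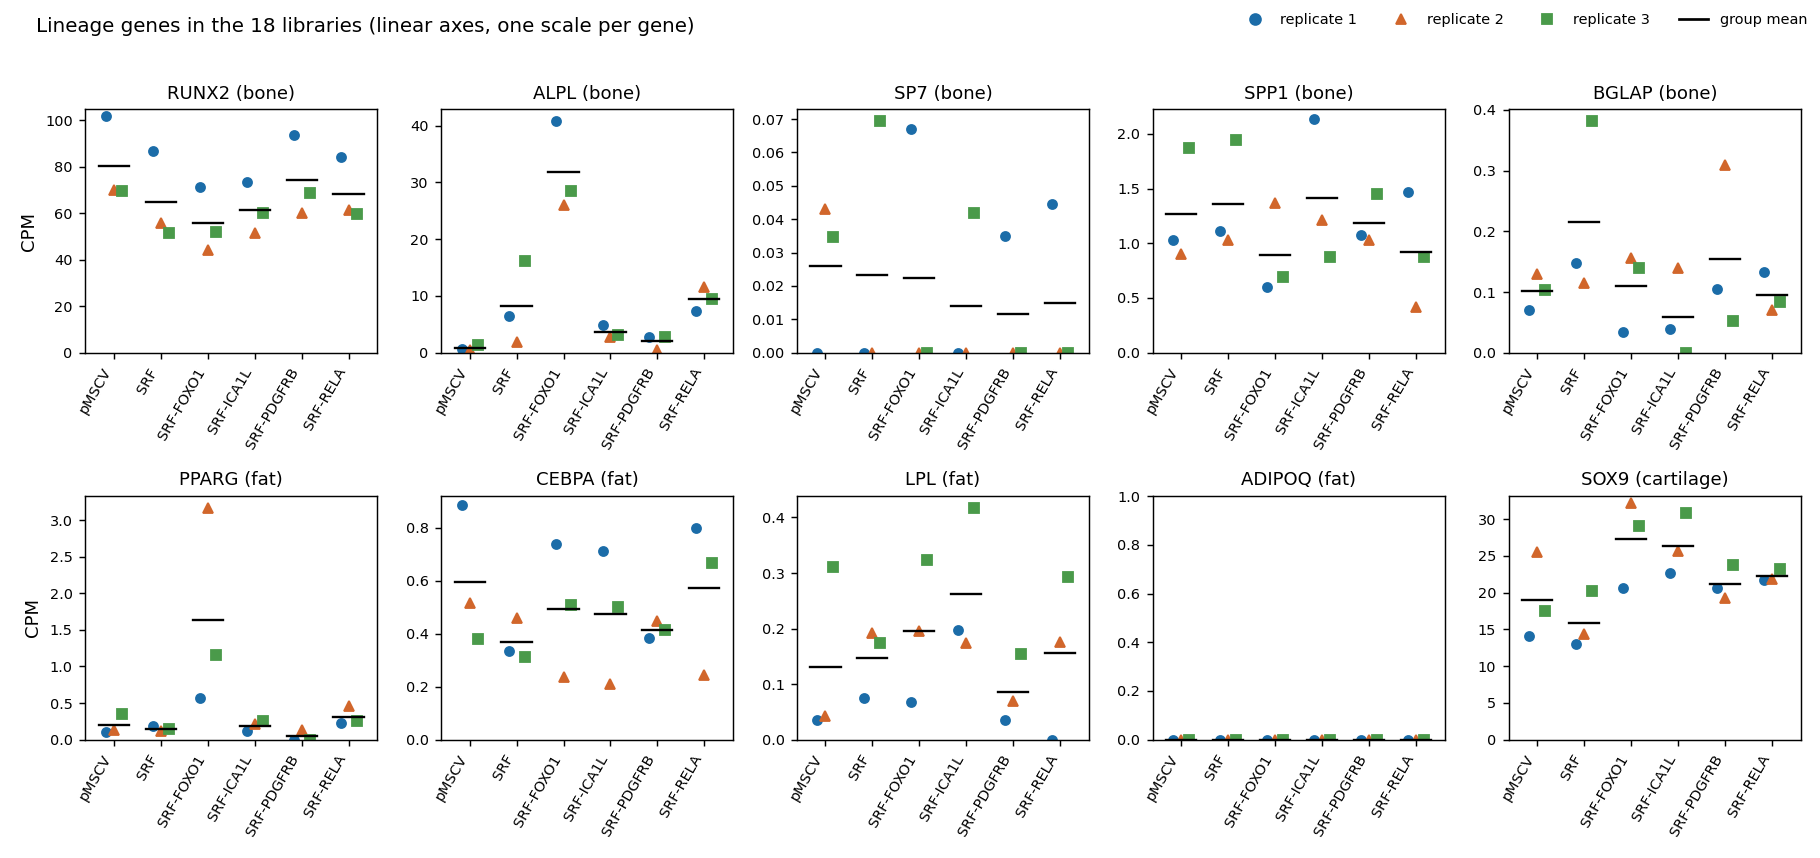
Level of each of the 10 genes in CPM (linear axis from 0, 1 scale per gene) in the 18 libraries, by group on the horizontal axis. Symbols give the replicate number and black bars the group mean. ALPL and PPARG are highest in the 3 libraries labelled SRF-FOXO1, RUNX2 is highest in the libraries numbered 1, and ADIPOQ has no count.

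RUNX2 (chr6:45328157-45664349, plus strand) was well expressed in every group. It was at 102, 70.2 and 69.6 CPM in pMSCV replicates 1 to 3, and at 86.8, 55.9 and 51.4 CPM in SRF. The libraries labelled SRF-FOXO1 had 71.1, 44.2 and 51.8 CPM. In each of these groups the library numbered 1 was the highest. The levels were 73.4, 51.3 and 59.9 CPM in SRF-ICA1L, 93.7, 60.3 and 68.9 CPM in SRF-PDGFRB and 84.0, 61.2 and 59.7 CPM in SRF-RELA. Over the 6 groups, libraries numbered 1 ran from 71.1 to 102 CPM, above all of those numbered 2 (44.2 to 70.2 CPM) and 3 (51.4 to 69.6 CPM). The groups overlapped in all 15 comparisons between them. Within each replicate number, RUNX2 was lower than pMSCV in all 5 constructs; in the libraries labelled SRF-FOXO1 the log2 ratios were -0.52, -0.67 and -0.43.

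RUNX2 was called in 0 of the 15 comparisons by edgeR, and in 0 at an unadjusted p under 0.05; 2.73% of all tested genes were called in at least 1. Against pMSCV its log2 fold change in the libraries labelled SRF-FOXO1 was -0.47 (SE 0.24, edgeR adjusted p 0.373). With the replicate number as a block, which takes out what same-numbered libraries share, the value was -0.46 (SE 0.09, edgeR adjusted p 0.00576) and the gene was called. Over the 15 alternatives the adjusted p of this comparison ran from 0.00576 to 0.798. The libraries labelled SRF-FOXO1 were also called lower than SRF-PDGFRB with the block, at -0.34 (SE 0.09, edgeR adjusted p 0.0402; 0.0402 to 0.854 over the alternatives), where 4.32% of all genes were called. The call of RUNX2 as lower rests on the block.

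ALPL (chr1:21509372-21578412, plus strand) differed most between groups. The pMSCV libraries had 0.602, 0.516 and 1.28 CPM, from 17, 12 and 37 counts. The libraries labelled SRF-FOXO1 had 40.8, 26.0 and 28.4 CPM. All 3 lay above the 15 other libraries, of which SRF replicate 3 was the highest at 16.2 CPM. SRF had 6.45, 1.84 and 16.2 CPM, a wide spread within 1 group. SRF-RELA had 7.29, 11.6 and 9.53 CPM, all above pMSCV. SRF-ICA1L, at 4.91, 2.81 and 3.13 CPM, was also above pMSCV in each library. SRF-PDGFRB, at 2.82, 0.412 and 2.74 CPM, overlapped pMSCV. By mean and SD (n = 3) the order was the group labelled SRF-FOXO1 (31.7 ± 7.96 CPM), SRF-RELA (9.48 ± 2.18), SRF (8.16 ± 7.32), SRF-ICA1L (3.62 ± 1.13), SRF-PDGFRB (1.99 ± 1.37) and pMSCV (0.800 ± 0.419). Only the first step in this order, from SRF-FOXO1 to SRF-RELA, separated neighbours whose libraries did not overlap.

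Against pMSCV, ALPL rose in the libraries labelled SRF-FOXO1, with a log2 fold change at 5.36 (SE 0.76, edgeR adjusted p 0.00625). The log2 ratios within replicate numbers were 6.08, 5.66 and 4.47. The call held in 14 of 15 alternatives and was lost without pMSCV replicate 1 (edgeR adjusted p 0.0817; 1.03e-10 to 0.0817 over the alternatives). Among these alternatives, 1 only adds a minimum log2 fold change, which ALPL meets here, so it could not lose the call. In this comparison 2 of the 6 tested lineage genes were called, against 0.928% of all tested genes. With the block these were 4 of 6, against 7.03%. PPARG passed the count filter only through the libraries labelled SRF-FOXO1, where it was high. Its rise therefore partly sets the shares of the 6 genes in all comparisons of those libraries. ALPL also rose against SRF-PDGFRB, by 4.09 (SE 0.70, edgeR adjusted p 0.0163; 3.10e-06 to 0.0947 over the alternatives), where 2 of 6 lineage genes and 0.717% of all genes were called. That call was lost without SRF-PDGFRB replicate 1, 2 or 3, at edgeR adjusted p values of 0.0613, 0.0746 and 0.0857.

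The other fusions and SRF itself did not pass the test for ALPL. The log2 fold change against pMSCV was 3.37 in SRF (SE 0.73, edgeR adjusted p 0.285) and 3.61 in SRF-RELA (SE 0.73, edgeR adjusted p 0.0792). It was 2.26 in SRF-ICA1L (SE 0.73, edgeR adjusted p 0.238) and 1.27 in SRF-PDGFRB (SE 0.74, edgeR adjusted p 1). With the block SRF-RELA was called at 3.77 (SE 0.68, edgeR adjusted p 0.0177; 0.00018 to 0.460 over the alternatives), where 0.971% of all genes were. Against SRF, the libraries labelled SRF-FOXO1 were higher in all 3 numbers, by 1.99 (SE 0.63, edgeR adjusted p 0.145), which did not pass the test; without SRF replicate 3, the highest of that group, it was called at 2.96 (edgeR adjusted p 0.0273; 0.0273 to 0.489 over the alternatives). Against SRF-ICA1L the difference was 3.10 (SE 0.66, edgeR adjusted p 0.152) in a comparison that called 0.0270% of all genes. The block gave 3.12 (SE 0.58, edgeR adjusted p 0.0251; 0.00528 to 0.719 over the alternatives), where 0.911% of all genes were called. Against SRF-RELA, where 0.00539% of all genes were called, it was 1.75 (SE 0.62, edgeR adjusted p 0.468).

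SPP1 passed the test in no comparison. Its 18 libraries ran from 0.421 CPM in SRF-RELA replicate 2 to 2.14 CPM in SRF-ICA1L replicate 1. Every group overlapped every neighbour in the order of means, from 1.41 ± 0.653 CPM in SRF-ICA1L to 0.889 ± 0.419 CPM in SRF-FOXO1 (SD, n = 3). Over the 15 comparisons its log2 fold changes were between -0.68 and 0.69, with 0 called by edgeR and 0 at an unadjusted p under 0.05.

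SP7 and BGLAP stayed near 0. SP7 had at most 2 counts in a library and no count in 11 of the 18. BGLAP had at most 11 counts and was highest in SRF replicate 3, at 0.382 CPM. Of its 1190 exon bases, 398 are shared with the readthrough gene PMF1-BGLAP, which had 4 counts in all, so its own low count is uncertain; PMF1, the neighbouring gene, was at 8.77 to 17.6 CPM.

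PPARG (chr3:12287368-12434356, plus strand) was low in most libraries. The pMSCV libraries had 0.106, 0.129 and 0.346 CPM, from 3, 3 and 10 counts. The libraries labelled SRF-FOXO1 had 0.570, 3.17 and 1.16 CPM, from 17, 81 and 25 counts. These 3 were above the other 15, of which SRF-RELA replicate 2 was the highest at 0.456 CPM, and they spread over more than the other groups did. SRF had 0.185, 0.115 and 0.139 CPM, SRF-ICA1L 0.119, 0.208 and 0.250 CPM, and SRF-RELA 0.222, 0.456 and 0.251 CPM. SRF-PDGFRB had counts in replicate 2 only, 4 of them (0.137 CPM). Apart from the step from SRF-FOXO1 to SRF-RELA, neighbours in the order of means overlapped.

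PPARG rose in the libraries labelled SRF-FOXO1 against pMSCV, with a log2 fold change at 3.14 (SE 0.71, edgeR adjusted p 0.0461; 0.00358 to 0.451 over the alternatives). PPARG passed the filter only through these libraries, so filter and test drew on the same high values. This also holds for its tests against SRF and SRF-PDGFRB. The log2 ratios within replicate numbers were 2.43, 4.62 and 1.74, so replicate 2 stood out. That call was lost in 5 of the 6 fits that left out 1 library. Without pMSCV replicates 1, 2 or 3 the edgeR adjusted p was 0.249, 0.150 and 0.127, and without SRF-FOXO1 replicates 2 or 3 it was 0.244 and 0.0542. Without SRF-FOXO1 replicate 2 the log2 fold change was 2.12. ALPL, with more counts, lost its call in 1 of these 6 fits.

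Against SRF, PPARG rose by 3.52 (SE 0.73, edgeR adjusted p 0.0269; 0.00075 to 0.428 over the alternatives). It was the 1 called lineage gene of the 6 tested in that comparison, where 1.36% of all genes were called. Without SRF replicate 1 or 2, or without SRF-FOXO1 replicate 2, the edgeR adjusted p was 0.105, 0.130 and 0.147. Against SRF-PDGFRB it rose by 4.98 (SE 0.86, edgeR adjusted p 0.0147; 7.44e-05 to 0.196 over the alternatives). With only 4 counts in SRF-PDGFRB this size is poorly set: it was 3.97 without SRF-FOXO1 replicate 2 and 8.46 without SRF-PDGFRB replicate 2, which leaves that group at 0 counts, so that the fitted value is no bound. Here the call was lost without SRF-FOXO1 replicate 2 (edgeR adjusted p 0.0586) and without SRF-PDGFRB replicates 1 or 3 (0.0813 and 0.0867). The differences from SRF-ICA1L (3.06, SE 0.71, edgeR adjusted p 0.190) and from SRF-RELA (2.41, SE 0.67, edgeR adjusted p 0.468) did not pass the test; with the block the first did (2.91, SE 0.57, edgeR adjusted p 0.0235; 0.0207 to 0.998 over the alternatives).

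CEBPA, the partner of PPARG in fat cell formation, did not share its pattern. It ran from 0.208 CPM in SRF-ICA1L replicate 2 to 0.885 CPM in pMSCV replicate 1. The group means lay between 0.368 ± 0.0792 CPM in SRF and 0.594 ± 0.261 CPM in pMSCV (SD, n = 3), and neighbouring groups overlapped. Its log2 fold changes over the 15 comparisons were between -0.66 and 0.63, with 0 called by edgeR and 0 at an unadjusted p under 0.05.

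LPL and ADIPOQ, the products of mature fat cells in the set, were at or near 0. LPL had at most 10 counts in a library and was highest in SRF-ICA1L replicate 3, at 0.417 CPM. ADIPOQ had 0 counts in all 18 libraries, which allows a level of up to 0.101 to 0.155 CPM per library at 3 counts, for counting error only. When the filter was left out, SP7, BGLAP and LPL could be tested. The edgeR test called 0 of these 3 genes in the 15 comparisons, with 0 at an unadjusted p under 0.05 and a smallest p of 0.0528 for LPL (edgeR adjusted p 0.756); that fit called 1.14% of its 40522 genes in at least 1 comparison.

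SOX9 (chr17:72121020-72126420, plus strand) was expressed in every library. The pMSCV libraries had 14.1, 25.5 and 17.5 CPM, and SRF had 13.1, 14.4 and 20.2 CPM. The libraries labelled SRF-FOXO1 had 20.6, 32.2 and 29.1 CPM, and SRF-ICA1L had 22.7, 25.7 and 30.8 CPM. Both of these groups lay above all SRF libraries and overlapped pMSCV. SRF-PDGFRB had 20.6, 19.2 and 23.8 CPM, overlapping SRF, and SRF-RELA had 21.7, 21.9 and 23.3 CPM, above it. SRF held the lowest mean, 15.9 ± 3.78 CPM, and the group labelled SRF-FOXO1 the highest, 27.3 ± 5.98 CPM (SD, n = 3).

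SOX9 was called in 0 of the 15 comparisons by edgeR, with 5 at an unadjusted p under 0.05. Against SRF the log2 fold change was 0.84 in the libraries labelled SRF-FOXO1 (SE 0.22, edgeR adjusted p 0.0709; 0.0102 to 0.657 over the alternatives), and leaving out SRF replicate 3 or SRF-FOXO1 replicate 1 brought the call, at edgeR adjusted p values of 0.0258 and 0.0179. SRF-ICA1L against SRF, a comparison that called 0.782% of all genes, gave 0.81 for SOX9 (SE 0.22, edgeR adjusted p 0.112). Adding the block left 0.81 (SE 0.17, edgeR adjusted p 0.0142; 0.0142 to 0.543 over the alternatives), where 4.73% of all genes were called. Set against pMSCV, the libraries labelled SRF-FOXO1 gave 0.61 (SE 0.22, edgeR adjusted p 0.205), and its blocked value was 0.61 too (SE 0.17, edgeR adjusted p 0.0460; 0.0460 to 0.576 over the alternatives). DESeq2's Wald test called SOX9 higher than SRF in both fusions (adjusted p 0.0146 in the libraries labelled SRF-FOXO1 and 0.0282 in SRF-ICA1L).

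**Figure D2:**
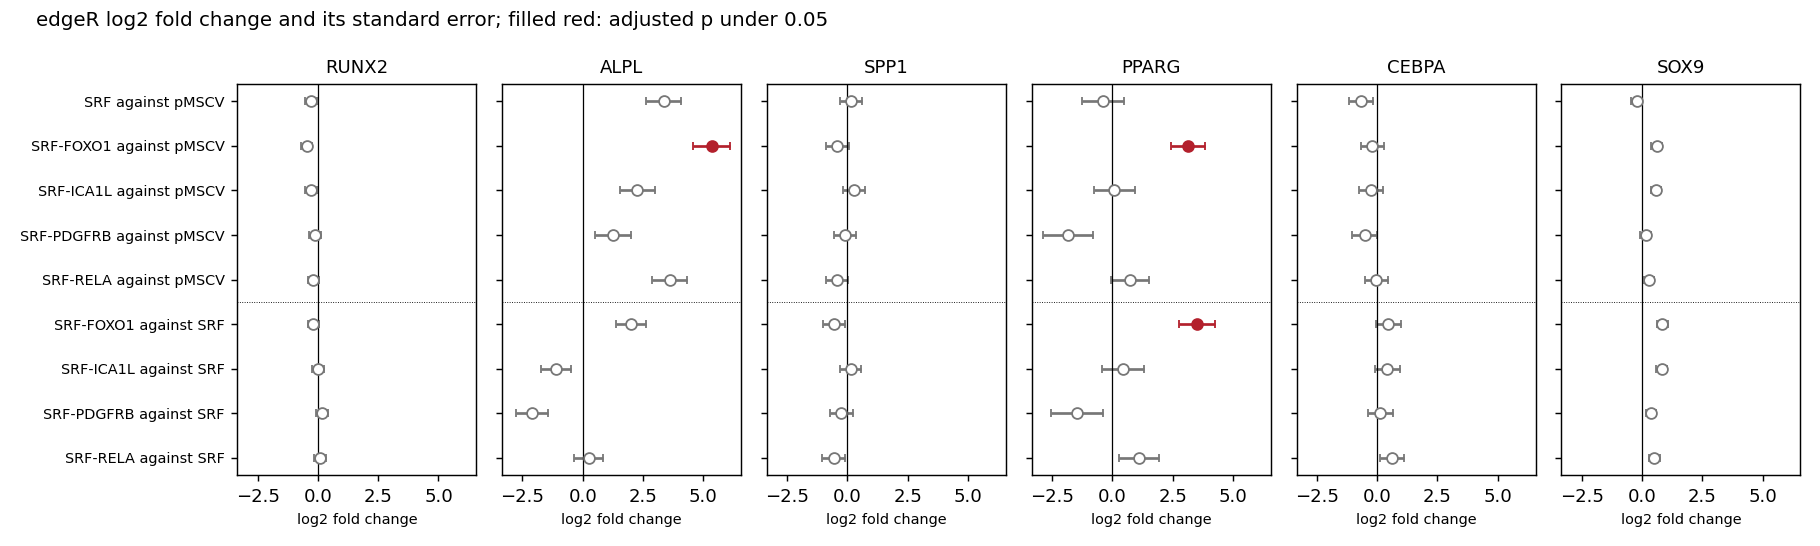
The log2 fold change (horizontal axis) and its standard error (bars) of the 6 tested lineage genes in the comparisons against pMSCV (above the dotted line) and against SRF (below it), from edgeR. Filled red points have an adjusted p under 0.05: ALPL and PPARG in the libraries labelled SRF-FOXO1 against pMSCV, at 5.36 and 3.14, and PPARG in the same libraries against SRF, at 3.52. PPARG passed the count filter only through these libraries.

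In the comparisons of SRF, SRF-ICA1L, SRF-PDGFRB and SRF-RELA with pMSCV, edgeR called 0 of the 6 tested lineage genes. It called 0.0270%, 0.469%, 0.0324% and 0.183% of all tested genes there. At an unadjusted p under 0.05 there were 1, 2, 0 and 1 lineage genes, beside 997, 2001, 390 and 710 of all 18544 tested genes. DESeq2's Wald test called ALPL in SRF (adjusted p 0.00324) and SRF-RELA (adjusted p 0.00018) and no lineage gene in SRF-ICA1L or SRF-PDGFRB. Against pMSCV, the median log2 fold change of the 6 genes was -0.26 for SRF, 0.21 for SRF-FOXO1, 0.17 for SRF-ICA1L, -0.12 for SRF-PDGFRB and 0.12 for SRF-RELA. Over all tested genes it was 0.01, 0.01, -0.01, 0.00 and -0.01, in the same order. These 5 comparisons share the pMSCV libraries. In the libraries labelled SRF-FOXO1, 3 of the 6 lineage genes had a positive and 3 a negative log2 fold change.

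By ranges alone, in the libraries labelled SRF-FOXO1 against pMSCV the values of 2 of the 6 genes, ALPL and PPARG, did not overlap and were higher, as for 6.41% of all genes. Against SRF this held for 3 genes, with SOX9 added, and for 5.55% of all genes. Since PPARG passed the filter only through these libraries, its rise partly sets both counts. Across the 18 libraries the correlation of ALPL and PPARG in log2 CPM was 0.62, and that of RUNX2 and SOX9 was -0.54; the libraries share groups, replicate numbers and depth, so these values describe them only.

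Levels of smooth muscle markers differed between the same groups. All 6 markers (ACTA2, ACTG2, CNN1, TAGLN, MYH11 and DES) had counts in the series, DES only 49 in all. Their sum was 94.5 to 303 CPM in pMSCV, 145 to 451 CPM in SRF and 213 to 399 CPM in SRF-PDGFRB. It was 576 to 1128 CPM in SRF-ICA1L, 471 to 1276 CPM in SRF-RELA and 846 to 2227 CPM in the group labelled SRF-FOXO1, in which ALPL and PPARG were highest. The 5 endothelial markers summed to 73.6 to 94.1 CPM in pMSCV, 127 to 351 CPM in the group labelled SRF-FOXO1, 131 to 394 CPM in SRF-ICA1L and 120 to 327 CPM in SRF-RELA; SRF had 89.6 to 115 CPM and SRF-PDGFRB 78.3 to 141 CPM. The 5 epithelial markers summed to 51.0 to 91.3, 93.5 to 226, 98.7 to 232 and 75.3 to 153 CPM in the first 4 groups, 51.2 to 144 CPM in SRF and 52.2 to 108 CPM in SRF-PDGFRB. These sums rest on few genes. TEK had 72888 counts over the series and PECAM1 6471, against at most 931 for KDR, CDH5 and VWF. KRT18 had 37473 and KRT8 17806, against at most 98 for EPCAM, CDH1 and KRT19. Against pMSCV, 3 endothelial markers were higher and 2 lower in both SRF-FOXO1 and SRF-ICA1L, with 0 called by edgeR. Of the 5 skeletal muscle markers, MYF5, MYOG and PAX7 were at 0 in all libraries and MYOD1 had 1 count; MYH3 had counts in each, and the list summed to 2.03 to 4.39 CPM. The part of these genes or of the cells that express them in the levels of ALPL and PPARG was not tested.

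Wider lists held 31 other bone genes, 34 other fat genes and 28 other cartilage genes, of which 21, 22 and 15 passed the filter. In the libraries labelled SRF-FOXO1 against pMSCV, edgeR called 0 of 21 bone genes, 2 of 22 fat genes (both higher) and 0 of 15 cartilage genes, beside 0.928% of all genes. At an unadjusted p under 0.05 there were 4, 5 and 5 genes, and 2803 of 18544 over all genes. The median log2 fold changes were 0.00, 0.09 and -0.24, against 0.01 over all genes. With the replicate block it called 3 bone genes (2 higher), 7 fat genes (5 higher) and 5 cartilage genes (1 higher), beside 7.03% of all genes. The bone median was then -0.12. In the other 4 constructs against pMSCV edgeR called 0 genes of each list. At an unadjusted p under 0.05, SRF-ICA1L had 5 bone, 6 fat and 1 cartilage genes, beside 2001 of 18544 over all genes. No other of these comparisons had more in any list. With the block edgeR called 3 bone, 6 fat and 2 cartilage genes in SRF-ICA1L, beside 4.66% of all genes. It called 1 bone and 1 fat gene in SRF-RELA, beside 0.971%, and 0 in SRF and SRF-PDGFRB. DESeq2's Wald test called 3 bone genes and 1 cartilage gene in at least 1 construct against pMSCV. FABP5 and KLF5, the fat genes called by edgeR, stayed called by the Wald test in the libraries labelled SRF-FOXO1. No share of all genes called by the Wald test is given here, also not for its calls of ALPL and SOX9.

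**Figure D3:**
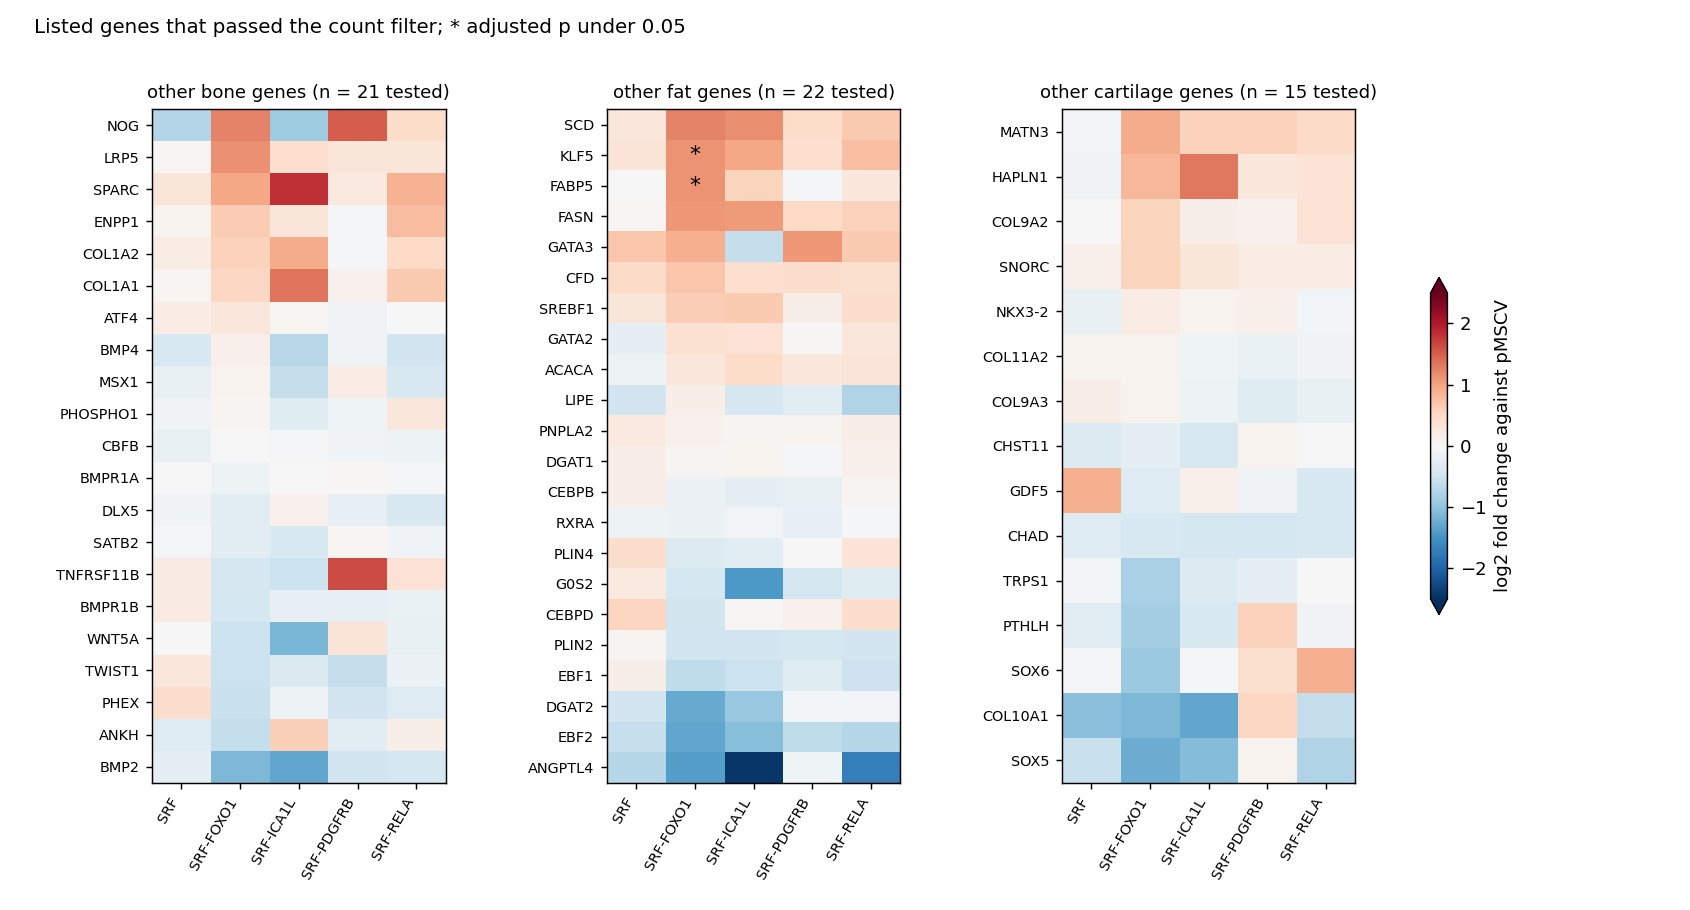
The log2 fold change against pMSCV (colour) of the other bone, fat and cartilage genes that passed the filter, 1 gene per row and 1 construct per column, ordered by their value in the libraries labelled SRF-FOXO1. Stars mark an adjusted p under 0.05 in edgeR: FABP5 and KLF5 in those libraries. Values run from -2.43 to 1.83.

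FABP5, which carries fatty acids within the cell, was at 8.11, 7.48 and 7.03 CPM in pMSCV. In the libraries labelled SRF-FOXO1 it was at 20.1, 11.98 and 14.7 CPM, above all pMSCV libraries. On the log2 scale it rose by 1.11 against pMSCV (SE 0.22, edgeR adjusted p 0.0272; 0.00029 to 0.302 over the alternatives) and by 1.12 against SRF (SE 0.22, edgeR adjusted p 0.0210; 0.00018 to 0.368). Leaving out pMSCV replicates 1, 2 or 3 or SRF-FOXO1 replicates 1 or 2 gave edgeR adjusted p values of 0.131, 0.105, 0.145, 0.0549 and 0.0501 for the first. For the second, leaving out SRF replicates 1 or 2 gave 0.129 and 0.125.

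KLF5, a transcription factor that acts early in fat cell formation, was at 18.02, 20.7 and 19.3 CPM in pMSCV and at 26.5, 56.9 and 34.2 CPM in those labelled SRF-FOXO1. All 3 of the latter were above pMSCV. It rose by 1.12 (SE 0.24, edgeR adjusted p 0.0402; 0.00179 to 0.357 over the alternatives). Without pMSCV replicates 1, 2 or 3, or SRF-FOXO1 replicate 2, the edgeR adjusted p was 0.208, 0.109, 0.168 and 0.173. Without SRF-FOXO1 replicate 2 its log2 fold change was 0.68.

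The replicate block raised the counts of called genes in these lists. Over the comparisons against pMSCV and SRF it called 7 of 21 bone, 9 of 22 fat and 7 of 15 cartilage genes in at least 1 comparison, beside 14.7% of all genes; without it these were 0, 2 and 0 genes, beside 2.34%. The 2 genes with the highest mean level in each list were among them. COL1A1 and COL1A2, the chains of the main bone collagen, were higher in SRF-ICA1L than in pMSCV with it, at 1.25 (SE 0.26, edgeR adjusted p 0.0135) and 0.87 (SE 0.20, edgeR adjusted p 0.0237); without it the edgeR adjusted p was 0.128 and 0.203. SCD and FASN, enzymes of fatty acid synthesis, were higher in the libraries labelled SRF-FOXO1 than in pMSCV, at 1.27 (SE 0.27, edgeR adjusted p 0.0120) and 0.99 (SE 0.19, edgeR adjusted p 0.00668); without the block it was 0.463 and 0.361.

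HAPLN1, which links proteoglycan to hyaluronan in cartilage matrix, was higher in SRF-ICA1L than in pMSCV with the block (1.33, SE 0.25, edgeR adjusted p 0.00866; 0.519 without it). In the libraries labelled SRF-FOXO1 its blocked value was 0.72 (SE 0.25, edgeR adjusted p 0.0978), which did not pass. COL10A1, the collagen of hypertrophic cartilage, was lower with the block in the libraries labelled SRF-FOXO1 than in pMSCV (-1.45, SE 0.40, edgeR adjusted p 0.0486; 0.536 without it). In SRF-ICA1L it was at -1.50 with the block (SE 0.40, edgeR adjusted p 0.0524), which did not pass. PTHLH, a secreted regulator of cartilage growth named here after its values were seen, fell in the libraries labelled SRF-FOXO1 against SRF-PDGFRB by 1.44 on the log2 scale (SE 0.26, edgeR adjusted p 0.0199). In that comparison edgeR called 1 of 15 cartilage, 1 of 22 fat and 0 of 21 bone genes, beside 0.717% of all genes. The result for PTHLH was not tried under the alternatives.

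For each tested lineage gene, the genes most like it were taken by Pearson's r of log2 CPM over the 18 libraries, which share groups, replicate numbers and depth. ALPL was most like LINC02086 (r = 0.90) and AGTR1 (0.88). LINC02086 had group means of only 0.0352 CPM in pMSCV and 0.504 CPM in the group labelled SRF-FOXO1, so its r rests on few counts. AGTR1, the angiotensin II receptor, had group means of 23.3 CPM in pMSCV and 77.8 CPM in the group labelled SRF-FOXO1. PPARG was most like LAYN (r = 0.90), KRT14 (0.88) and NT5DC3 (0.88). In the same groups LAYN was at 36.7 and 72.7 CPM, and KRT14 was low, at 0.199 and 2.94 CPM. For SOX9 they were IARS1 (r = 0.94), SLC2A1 (0.94) and OGFOD1 (0.91), and SLC2A1, a glucose transporter, was lowest in SRF (49.6 CPM) and highest in the libraries labelled SRF-FOXO1 (126 CPM), the same ends as SOX9. RUNX2 was most like RIMKLB (r = 0.95), ZCCHC14 (0.94) and FNIP1 (0.93), CEBPA like VGF (0.86), LZIC (0.82) and FAM53B (0.77), and SPP1 like LINC01776 (0.82), LINC01431 (0.77) and PLXNC1 (0.73).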

How the data were processed

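RNA from 18 libraries of MSC-hTERT cells was sequenced as stranded mRNA libraries on an Illumina NovaSeq instrument, per the labels' protocols. The authors deposited a table of raw read counts by Ensembl gene, per the file headers. Per the submitters' processing notes, the tools were FastQC 0.11.8, Trimmomatic 0.39, HISAT2, featureCounts and Subread 2.0.3, with genome build GRCh38. The annotation release and whether counting used strand are not given in the sources used here, so reads of overlapping genes could have been split. Symbols came from a table of gene names, positions and exon lengths from GENCODE release 29 on GRCh38, and promoters from RefSeq.

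Counts were analysed in R 4.3.3 with edgeR 4.0.16: filterByExpr with a minimum count of 10 (18544 genes), TMM scaling, and a robust quasi-likelihood fit with 1 coefficient per group (12 residual degrees of freedom, common biological coefficient of variation 0.225). The 15 pairs of groups were compared by two-sided F tests with Benjamini-Hochberg adjustment over all tested genes. CPM is a library's count over its total. Intervals and limits at 0 cover counting error only.

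Across tested genes, 44 of 45 pairs of same-numbered libraries deviated together from their group means (correlation over 0.1, median 0.38). The exception was SRF and SRF-FOXO1 replicate 1. The median of the 90 other pairs was -0.18. Deviations from a group mean cancel within the group, so this negative median follows from the positive one and is no separate contrast. The pairing is read from the values, not the labels. With the replicate block, 10 residual degrees of freedom remain and the coefficient of variation is 0.150; this fit is given beside results it changed in call or by over 1.5 times in count, except for SRF-FOXO1 against SRF.

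The members and lists were chosen with earlier results of these data known. The naming rule takes the 10 members, listed genes called against pMSCV or SRF, the 2 genes of each list with the highest mean CPM, the 3 genes most like each tested member (log2 CPM with a prior count of 2), the construct genes, and PMF1 and readthrough genes. Of the genes so named, 1 is not reported here. Alternatives were the block, DESeq2 1.42.0 size factors and Wald test, total count scaling, no filter, at least 10 counts in every library, only the compared groups, and leaving out each library; using only libraries numbered 1 and 3 was added after seeing the data. The fit was tested on simulated data.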

Additional observations from a re-analysis of the deposited data

How the results depend on the processing

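Of the 15 counts of called lineage genes, 8 were the same under all 15 alternatives. With the replicate block the count went from 2 to 4 in SRF-FOXO1 against pMSCV, 1 to 3 in SRF-FOXO1 against SRF, 0 to 2 in SRF-FOXO1 against SRF-ICA1L and 2 to 3 in SRF-FOXO1 against SRF-PDGFRB, and from 0 to 1 in both SRF-ICA1L against SRF and SRF-RELA against pMSCV. In the same order, the block called 7.03%, 7.23%, 0.911%, 4.32%, 4.73% and 0.971% of all genes. The fit without it called 0.928%, 1.36%, 0.0270%, 0.717%, 0.782% and 0.183%. In SRF-FOXO1 against SRF the block called ALPL (adjusted p 0.0314) and SOX9 (0.0102) besides PPARG. In SRF-FOXO1 against pMSCV the count was 1 with total count scaling, with at least 10 counts in every library, with libraries numbered 1 and 3, and with only the 2 groups, and 0 to 2 when 1 library was left out. Against SRF it was 0 with the strict filter, with numbers 1 and 3 and with only the 2 groups, 2 by DESeq2's Wald test, and 0 to 3 when 1 library was left out. Against SRF-PDGFRB it was 1 with no filter or the strict filter, 0 with numbers 1 and 3 or with only the 2 groups, and 0 to 2 when 1 library was left out. Against SRF-ICA1L it was 1 with only the 2 groups and 2 by the Wald test. SRF-RELA against pMSCV gave 1 with only the 2 groups and by the Wald test, and SRF against pMSCV and SRF-ICA1L against SRF gave 1 by the Wald test. The cause was not tested, except that PPARG fails the strict filter by construction.

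Listed genes called against pMSCV and against SRF were 6 and 5 (bone), 8 and 8 (fat) and 6 and 5 (cartilage) with the block. By the Wald test, which kept FABP5 and KLF5 against pMSCV, they were 3 and 2 (bone), 1 (cartilage, pMSCV) and 3 (fat, SRF). With no filter they were 1 and 1 (bone), 1 (fat, pMSCV) and 1 (cartilage, pMSCV). For fat against pMSCV the strict filter gave 1, and numbers 1 and 3 gave 0 in both. Leaving out 1 library gave 0 to 2 and 0 to 1 (bone), 0 to 2 in both (fat) and 0 to 1 in both (cartilage). None of the 18 single-gene results tried under these alternatives changed sign. Under total count scaling the median log2 fold change of all genes was -0.12 in SRF-ICA1L against pMSCV (-0.01 before) and -0.11 in SRF-ICA1L against SRF-PDGFRB (0.00 before). At these depths SP7, BGLAP, LPL and ADIPOQ gave too few counts for a fall or a small rise to be seen. PPARG had 3, 3 and 10 counts in pMSCV. Its large rise in the libraries labelled SRF-FOXO1 was called with no filter (edgeR adjusted p 0.0264).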
